A study of Mus musculus with 13 samples.

Results

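The mitosis genes described here are 46 named mouse genes whose products drive chromosome segregation and cell division or mark dividing cells. They were listed by name. A gene was taken as measured if at least 1 probe set of the array is assigned to it alone, and where it has several such sets the one highest on average stood for it. Of the 46 genes 45 were measured, among 19937 measured genes in all, and the remaining gene, Ccnb1, is only named.

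The series asked how mTORC1 activation bears on growth arrest under oncogenic Braf and on melanoma formation, and profiled messenger RNA on 13 Affymetrix arrays, 1 per sample, in 6 groups. Of the FACS-purified melanocytes, 2 arrays are of Cdkn2a/Braf cells at day 19, when growth has not yet stopped, 2 of Cdkn2a/Braf cells at day 50, when it has, and 2 of Cdkn2a-only cells at day 19, whose Braf is wild type. Of the lesions, taken as tissue and never cultured, 2 arrays are of Cdkn2a/Braf melanoma, 2 of Cdkn2a/Braf/Lkb1 melanoma and 3 of pooled Lkb1/Braf melanocytic proliferations. Cdkn2a, the locus of p16Ink4a and p19Arf, is altered in all groups except the proliferations, and Braf in all groups except the Cdkn2a-only cells. Lkb1, the kinase that restrains mTORC1 through AMPK, is altered in the triple-genotype melanoma and the proliferations. The promoter that drives recombination, the age of the animals with lesions and the number of animals in a pool are not given in the sources used here.

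In mitosis, cyclin A and cyclin B bound to Cdk1 start chromosome condensation and spindle assembly, with Polo-like and Aurora kinases. Kinetochores tie chromosomes to spindle microtubules, and the spindle checkpoint blocks Cdc20 until all chromosomes are attached. Cdc20 then switches on the anaphase-promoting complex, which marks cyclin B and securin for destruction, chromatids part, and the cleavage furrow divides the cell. Most of these transcripts are made late in the cell cycle, so their level in a tissue follows the share of dividing cells as well as the level per cell. Growth-arrested melanocytes, as in a naevus, are known for little division, and melanomas for more.

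Many of these genes share short promoter elements that the list did not use. Genes of late cell cycle phases are repressed in quiescent cells by the DREAM complex and activated in dividing cells by B-Myb and Foxm1, and the MuvB core of these complexes binds the cell cycle genes homology region (CHR), with the letters TTTGAA or TTTAAA. NF-Y, a ubiquitous activator, binds CCAAT boxes. RefSeq promoter sequences (build GRCm38.p6) from 250 bases before to 50 bases after the gene start were found for 39 of the 45 measured genes and searched on both strands. TTTAAA reads the same on both strands, the opposite strand of TTTGAA reads TTCAAA, and that of CCAAT reads ATTGG; neighbouring matches of 2 motifs may share bases. Of these genes 8 carry the findings below, so 140 bases of each, from 120 before to 20 after the start, are shown on the gene's own strand with the motifs in capitals. The first 5 (Cdc20, Plk1, Racgap1, Cdk1 and Ccnb2) were high in the triple-genotype melanoma, and Mad2l1, Cks2 and Kif11 were low in the arrested melanocytes. They lie at chr4:118437324-118437463 (- strand, Cdc20), chr7:122159315-122159454 (+ strand, Plk1), chr15:99651637-99651776 (- strand, Racgap1), chr10:69352893-69353032 (- strand, Cdk1), chr9:70421535-70421674 (- strand, Ccnb2), chr6:66535101-66535240 (+ strand, Mad2l1), chr13:51645112-51645251 (+ strand, Cks2) and chr19:37376262-37376401 (+ strand, Kif11).
Cdc20: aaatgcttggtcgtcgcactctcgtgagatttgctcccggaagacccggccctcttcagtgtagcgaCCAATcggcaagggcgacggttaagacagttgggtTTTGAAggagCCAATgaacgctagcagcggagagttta
Plk1: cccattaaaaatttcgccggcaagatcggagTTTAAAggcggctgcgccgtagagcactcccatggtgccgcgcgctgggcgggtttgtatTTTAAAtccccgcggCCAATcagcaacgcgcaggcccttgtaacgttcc
Racgap1: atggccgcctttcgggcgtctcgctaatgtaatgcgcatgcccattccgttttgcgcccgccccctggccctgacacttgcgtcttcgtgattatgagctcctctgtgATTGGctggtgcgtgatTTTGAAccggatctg
Cdk1: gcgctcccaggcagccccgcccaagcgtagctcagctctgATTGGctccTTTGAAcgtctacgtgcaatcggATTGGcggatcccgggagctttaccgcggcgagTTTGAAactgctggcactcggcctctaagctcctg
Ccnb2: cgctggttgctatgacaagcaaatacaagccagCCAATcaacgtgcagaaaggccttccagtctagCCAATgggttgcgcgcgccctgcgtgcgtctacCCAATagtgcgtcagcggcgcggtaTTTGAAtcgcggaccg
Mad2l1: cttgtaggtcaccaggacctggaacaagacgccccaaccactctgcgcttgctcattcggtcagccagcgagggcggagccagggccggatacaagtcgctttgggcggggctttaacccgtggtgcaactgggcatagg
Cks2: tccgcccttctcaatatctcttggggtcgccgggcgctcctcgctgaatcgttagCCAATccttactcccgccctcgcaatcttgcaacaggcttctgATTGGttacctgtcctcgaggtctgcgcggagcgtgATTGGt
Kif11: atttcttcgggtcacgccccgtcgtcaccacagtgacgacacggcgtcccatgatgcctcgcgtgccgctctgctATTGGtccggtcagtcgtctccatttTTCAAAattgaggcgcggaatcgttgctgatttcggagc

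A CHR of either form was present in 32 of the 39 promoters (82.1%), against 27.8% of 27025 gene promoters of the same length. TTTGAA alone was in 30 of 39 (76.9%, against 18.1% of all promoters) and TTTAAA in 8 of 39 (20.5%, against 13.2%). CCAAT was in 31 of 39 (79.5%, against 37.9%), and 22 of 39 held at least 2 such boxes (56.4%, against 12.2%). Both a CHR and a CCAAT box were in 28 of 39 (71.8%, against 10.9%). The CHR lay between 60 bases before and 50 bases after the start in 28 of 39 (71.8%, against 9.04%). Among the genes shown, the CHR of Cdc20 begins at position -18 and those of Cdk1 at -71 and -15. Plk1 has TTTAAA at -89 and -29, and TTTGAA at 31, past the stretch shown. The promoter windows of Mad2l1 and Cks2 hold neither form of the CHR, and that of Kif11 holds it at -19 on the opposite strand. Smc2, which was also low in the arrested melanocytes, is not shown. Its window holds the CHR at -145 and 27, both on the opposite strand. A match is a description of the sequence, since binding was not measured.

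**Figure D1:**
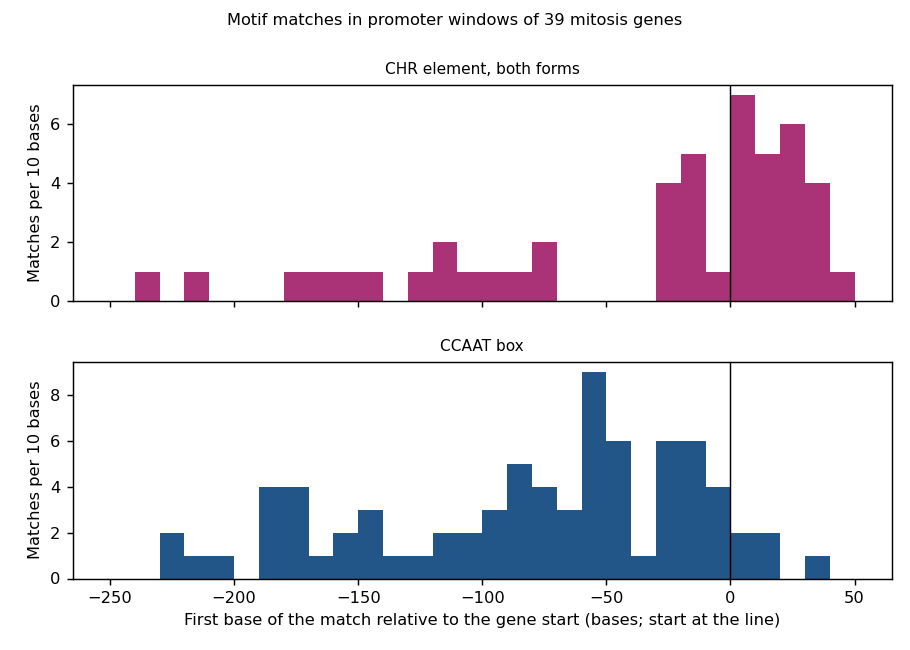
Histogram of the first base of each CHR match (top) and CCAAT match (bottom) relative to the gene start, in bins of 10 bases, over the 39 mitosis gene promoters found (vertical axis: matches per bin). CHR matches are most frequent around the start, in the stretch from 60 before to 50 after that holds a CHR in 28 of 39 promoters, and CCAAT matches lie mostly upstream of it.

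Levels are given as log2(intensity + 1), so a difference of 1 is close to 2-fold for bright probe sets and understates the change of dim ones. A level is not comparable between genes, since each rests on another probe set. Differences are the first group's mean minus the second's, with the standard error (SE) of a limma fit over all 13 arrays, and a gene is called where its limma p-value, adjusted over all 19937 genes, is under 0.05. The labels name the arrays of a group biological replicates, and their small number limits the precision of every value. The comparisons share arrays, so they are not independent of each other.

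Marker genes showed what else the samples held. The summed intensity of 12 melanocyte markers was 47400 to 52600 on the day 19 arrays of both genotypes and 24700 to 32900 at day 50, but 647 to 1160 in the melanomas and 3580 to 3990 in the proliferations. Tyr, the rate-limiting enzyme of pigment synthesis, was at 11.9 and 11.7 in day 19 Cdkn2a/Braf cells and at 7.40 and 9.90 at day 50. On the 4 melanoma arrays it was between 3.99 and 4.45, so the labelled melanomas carry little transcript of this pigment gene. Melanocyte markers were lower there to differing degrees. Between Cdkn2a/Braf melanoma and day 50 cells Tyr differed by -4.25 and Kit by -2.73. Kit was at 6.79 and 8.07 in Cdkn2a/Braf melanoma and at 7.16 and 6.70 in the triple genotype, against 9.41 and 10.9 at day 50. Keratinocyte markers (12 genes) summed to 24700 to 26800 in the proliferations, to 13700 to 17900 at day 50 and to 2570 to 4350 on the day 19 arrays. In Cdkn2a/Braf melanoma they summed to 1340 on replicate 1 and 8870 on replicate 2. In bulk samples fewer cells of a type and less RNA per cell cannot be told apart. Over all genes the interquartile range was 1.93 and 1.94 at day 50 and 2.00 to 2.11 in the proliferations, against 2.45 to 2.89 on the other arrays.

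The mitosis genes were highest in Cdkn2a/Braf/Lkb1 melanoma. That group had the highest mean for 44 of the 45 genes, and the proliferations for the other, Mki67, which encodes the Ki-67 protein that coats mitotic chromosomes. The lowest mean was in day 50 melanocytes for 26 genes, in Cdkn2a-only melanocytes for 9, in day 19 Cdkn2a/Braf melanocytes for 7 and in Cdkn2a/Braf melanoma for 3. The median over the 45 genes was 8.31 and 8.75 on the arrays of Cdkn2a/Braf/Lkb1 melanoma, 7.87 and 6.48 in Cdkn2a/Braf melanoma, and 7.21, 7.22 and 7.67 in the proliferations. It was 6.64 and 6.48 in day 19 Cdkn2a/Braf melanocytes, 6.16 and 6.42 at day 50, and 6.46 and 6.75 in Cdkn2a-only melanocytes. The triple-genotype melanoma arrays thus lay above all others, both day 50 arrays lay below all day 19 arrays, and the 2 day 19 groups overlapped. As means these medians were 8.53 ± 0.32 (SD, n = 2), 7.17 ± 0.98 (SD, n = 2) and 7.37 ± 0.26 (SD, n = 3) in the 3 lesions. In the melanocytes they were 6.56 ± 0.11 (SD, n = 2), 6.29 ± 0.18 (SD, n = 2) and 6.61 ± 0.21 (SD, n = 2), in the same order.

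**Figure D2:**
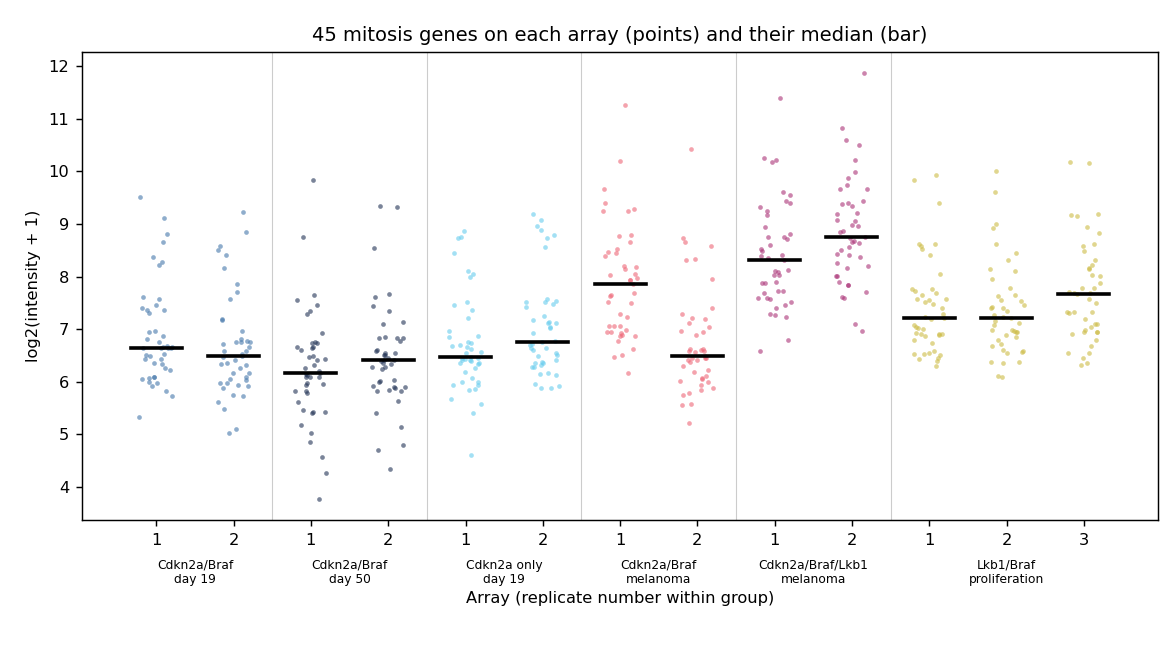
Level of the 45 mitosis genes (points, log2(intensity + 1)) on each of the 13 arrays, with their median as a bar. The medians are 8.31 and 8.75 in Cdkn2a/Braf/Lkb1 melanoma, and those of the Cdkn2a/Braf melanoma pair are 7.87 and 6.48.

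The 2 arrays of Cdkn2a/Braf melanoma stood far apart in these genes. Replicate 1 was higher than replicate 2 for 45 of 45 genes, with a median absolute difference of 1.25, while the SD of the difference over all genes was 0.40 in that pair and 0.27 to 0.70 in the other pairs. All 12 keratinocyte markers were higher on replicate 2, and their part in the gap was not tested. In Cdkn2a/Braf/Lkb1 melanoma replicate 2 was higher for 45 of 45 genes, with a median absolute difference of 0.48. Replicate 1 was higher for 36 genes in the day 19 Cdkn2a/Braf pair, for 24 in the day 50 pair and for 9 in the Cdkn2a-only pair. Among the proliferations replicate 1 was higher than replicate 2 for 27 genes and higher than replicate 3 for 3, and replicate 2 was higher than replicate 3 for 5. In both melanoma pairs all 45 genes thus differed in the same direction. Most also did so between proliferation replicate 3 and replicates 1 and 2, while the day 50 pair was nearly evenly split.

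**Figure D3:**
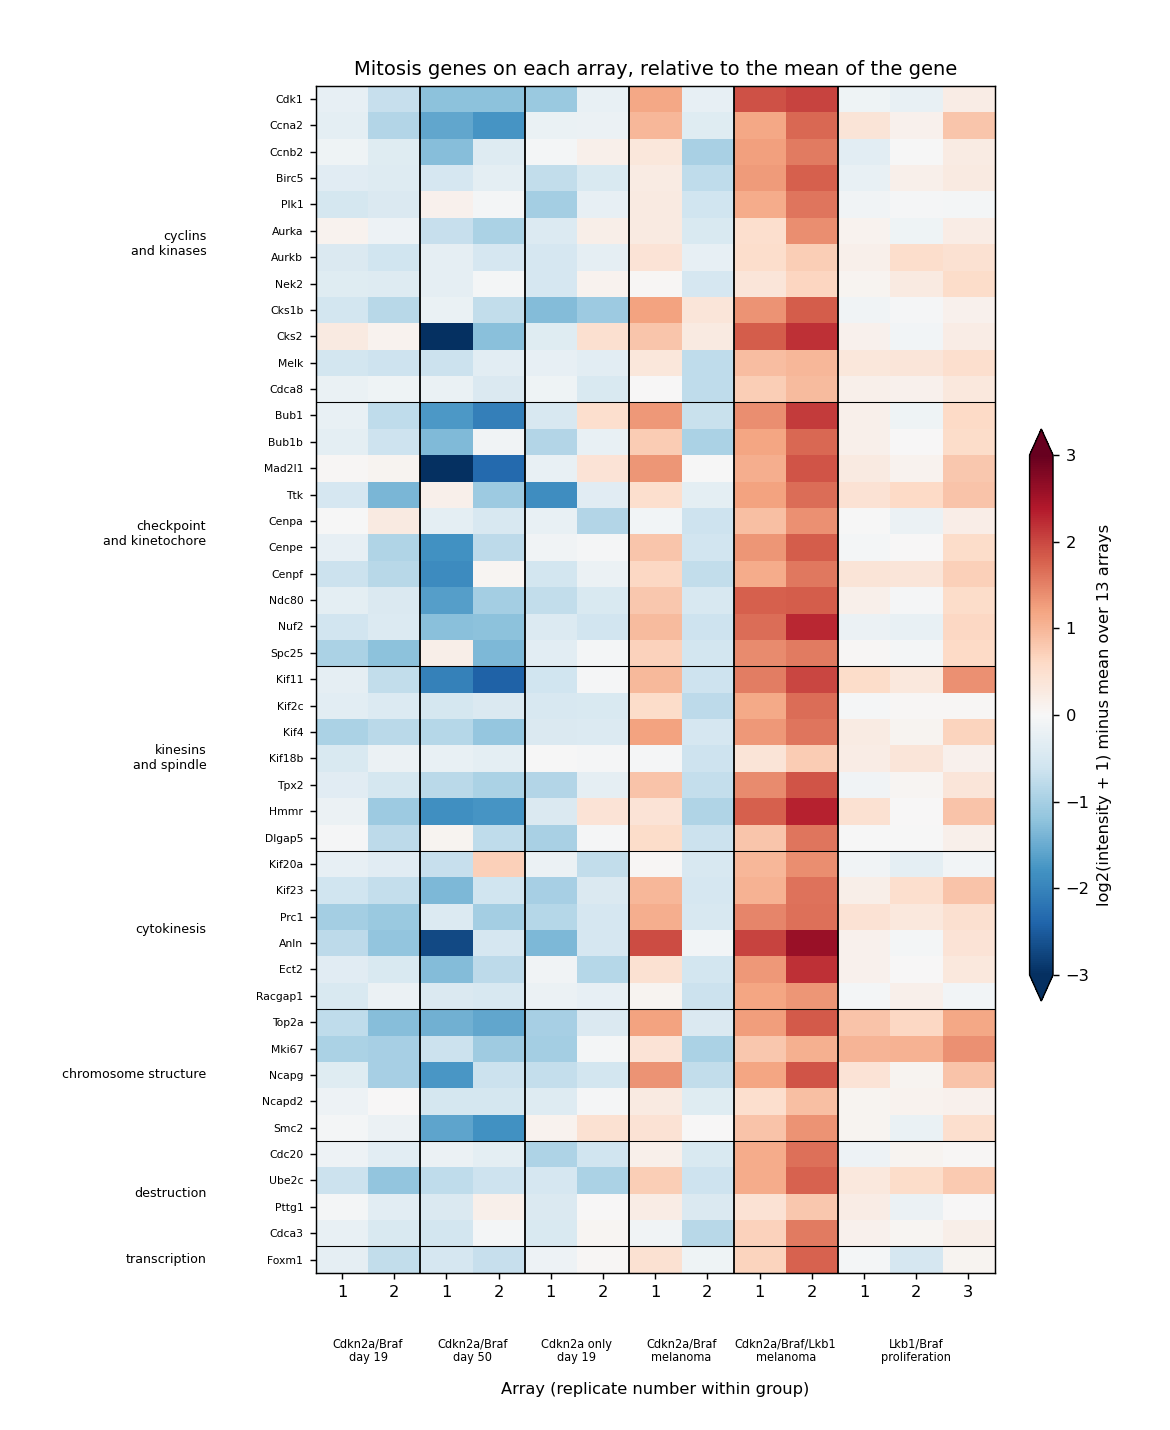
Heatmap of the 45 mitosis genes (rows, grouped by role) on 13 arrays (columns), as the level minus the gene's mean over all arrays (log2 units, red higher, blue lower; values beyond 3 in size are drawn in the end colour). Both Cdkn2a/Braf/Lkb1 melanoma arrays are red throughout, the Cdkn2a/Braf melanoma arrays differ from each other, and at day 50 single genes such as Mad2l1, Cks2 and Kif11 are blue.

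Cdk1, Plk1, Mad2l1 and Mki67 show the range of patterns over the groups. Cdk1, the kinase that drives entry into mitosis, was at 9.55 and 9.67 in Cdkn2a/Braf/Lkb1 melanoma, 8.80 and 7.40 in Cdkn2a/Braf melanoma, and 7.51, 7.42 and 7.87 in the proliferations. Its melanocyte values were 7.41 and 6.96 at day 19, 6.42 and 6.42 at day 50, and 6.54 and 7.42 in Cdkn2a-only cells. Cdk1 was therefore highest on both triple-genotype arrays and lowest on both day 50 arrays, with the proliferations and the day 19 cells between.

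Plk1, the Polo-like kinase of spindle assembly, was at 7.73 and 8.20 in Cdkn2a/Braf/Lkb1 melanoma, 6.88 and 6.01 in Cdkn2a/Braf melanoma, and 6.50, 6.56 and 6.54 in the proliferations. In melanocytes it was at 6.08 and 6.17 at day 19, 6.73 and 6.54 at day 50, and 5.58 and 6.35 in Cdkn2a-only cells. Outside the triple-genotype melanoma the ranges of Plk1 thus lay close together, and the day 50 arrays were not the lowest.

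Mad2l1, a spindle checkpoint protein that holds Cdc20 inactive, was at 9.44 and 10.21 in Cdkn2a/Braf/Lkb1 melanoma, 9.67 and 8.31 in Cdkn2a/Braf melanoma, and 8.61, 8.45 and 9.15 in the proliferations. Its melanocyte values were 8.38 and 8.41 at day 19, 4.85 and 6.01 at day 50, and 8.11 and 8.74 in Cdkn2a-only cells. Both day 50 arrays were far below the 11 others, which lay between 8.11 and 10.21. Mki67 was at 8.59, 8.61 and 8.94 in the proliferations, 8.39 and 8.63 in Cdkn2a/Braf/Lkb1 melanoma, 7.98 and 6.62 in Cdkn2a/Braf melanoma, and between 6.51 and 7.52 on the 6 melanocyte arrays. It was as high in the proliferations as in the triple-genotype melanoma.

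Between day 19 and day 50, the interval that spans growth arrest in Cdkn2a/Braf melanocytes, 4 mitosis genes fell and none rose. They were Mad2l1, Cks2, which binds Cdk1 in its complex with cyclins, Kif11, the motor that pushes spindle poles apart, and Smc2, a condensin subunit that compacts chromosomes. Of the 45 genes 8.9% were called lower, against 14.5% of all genes, and 0 higher, against 11.1%. The median difference was -0.19, with 16 genes positive and 29 negative, against a median of 0.17 over all genes. Median centring, quantile normalization and a common interquartile range moved that median of all genes to 0.07, 0.06 and 0.05. The groups did not overlap for 19 genes in the lower direction (24.8% of all genes) and for 3 in the higher direction (45.9% of all genes).

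Smc2 was at 8.28 and 8.16 at day 19 and at 6.76 and 6.51 at day 50. Both day 50 arrays were below both day 19 arrays, and the difference was -1.58 (SE 0.26, limma adjusted p = 0.00231). For Mad2l1, with its arrays as above, the difference was -2.96 (SE 0.49, limma adjusted p = 0.00268). Kif11 was at 6.95 and 6.48 at day 19 and at 5.18 and 4.79 at day 50, again without overlap, a difference of -1.73 (SE 0.49, limma adjusted p = 0.0307). Cks2 was at 8.66 and 8.51 at day 19 and at 3.77 and 7.14 at day 50. Its day 50 arrays were both lower but far apart, with a difference of -3.13 (SE 0.80, limma adjusted p = 0.0204).

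The other genes of entry, checkpoint and spindle did not pass. Bub1, a checkpoint kinase, differed by -1.39 (SE 0.57, limma adjusted p = 0.091), Hmmr, a spindle protein, by -1.17 (SE 0.47, limma adjusted p = 0.0862), and Ccna2, cyclin A2, by -1.09 (SE 0.41, limma adjusted p = 0.0707). Ndc80, the kinetochore protein that grips microtubules, differed by -0.97 (SE 0.37, limma adjusted p = 0.0716) and Cdk1 by -0.76 (SE 0.41, limma adjusted p = 0.171). For these 5 genes both day 50 arrays were below both day 19 arrays. The 4 genes of protein destruction lay near 0, with Cdc20 at 0.00 (SE 0.23), Cdca3, which helps degrade the Wee1 kinase, at 0.03 (SE 0.32), Pttg1, securin, at 0.06 (SE 0.28), and Ube2c, the ubiquitin-conjugating enzyme of the anaphase-promoting complex, at 0.22 (SE 0.40). Mki67 differed by 0.11 (SE 0.41) and Foxm1 by -0.10 (SE 0.35). Loss of these transcripts at day 50 was therefore not seen across the set, and intervals this wide do not show equal levels.

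Smc2 and Mad2l1 were called without either day 19 array, whereas those of Kif11 (adjusted p = 0.157 and 0.0761) and Cks2 (adjusted p = 0.0993 and 0.0785) ended without day 19 replicate 1 or 2. Kif11 also lost its call without day 50 replicate 2 (0.0768), the Cks2 difference was -1.44 without day 50 replicate 1 and -4.81 without day 50 replicate 2, and Kif20a, a motor of the cleavage furrow, was called at 1.02 without day 50 replicate 1. Scaling to a common interquartile range gave 6 lower and 1 higher. It added Bub1 and Hmmr as lower and Cks1b, a relative of Cks2, as higher. In the same contrast 8 of 12 melanocyte markers were lower, and 3 of 12 keratinocyte, 7 of 10 fibroblast and 7 of 10 endothelial markers were higher. The fibroblast marker Dpt was called lower (-2.58), as were the hair markers Lef1 (-2.75) and Krt35 (-0.96). Of the macrophage markers Cd68 was called lower (-1.49) and Cd14 higher (2.06). The part of all these markers in the mitosis gene values was not tested.

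The Braf allele at day 19 went with no called mitosis gene. Cdkn2a/Braf and Cdkn2a-only melanocytes gave 0 of 45 calls by limma, against 0.236% of all genes higher and 0.0552% lower, and 2 of the 45 had an unadjusted p under 0.05, against 1446 of 19937 genes. The median difference was -0.05, with 21 genes positive and 24 negative. The furthest values were those of Cenpa, the centromere histone, and Spc25, a kinetochore subunit. Cenpa was at 7.57 and 7.85 with the allele and 7.36 and 6.70 without, a difference of 0.68 (SE 0.27, limma adjusted p = 0.573). Spc25 was at 6.22 and 5.93 with the allele and 6.86 and 7.12 without, a difference of -0.92 (SE 0.48, limma adjusted p = 0.788). Neither pair overlapped. In all 6 of the 45 genes were higher without overlap (23.1% of all genes) and 11 lower (17.5% of all genes). Cdc20 was at 6.76 and 6.58 against 5.99 and 6.31, a difference of 0.52 (SE 0.23, limma adjusted p = 0.683). The 45 genes thus pointed both ways, and SEs from 0.21 to 0.80 leave room for changes of moderate size.

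**Figure D4:**
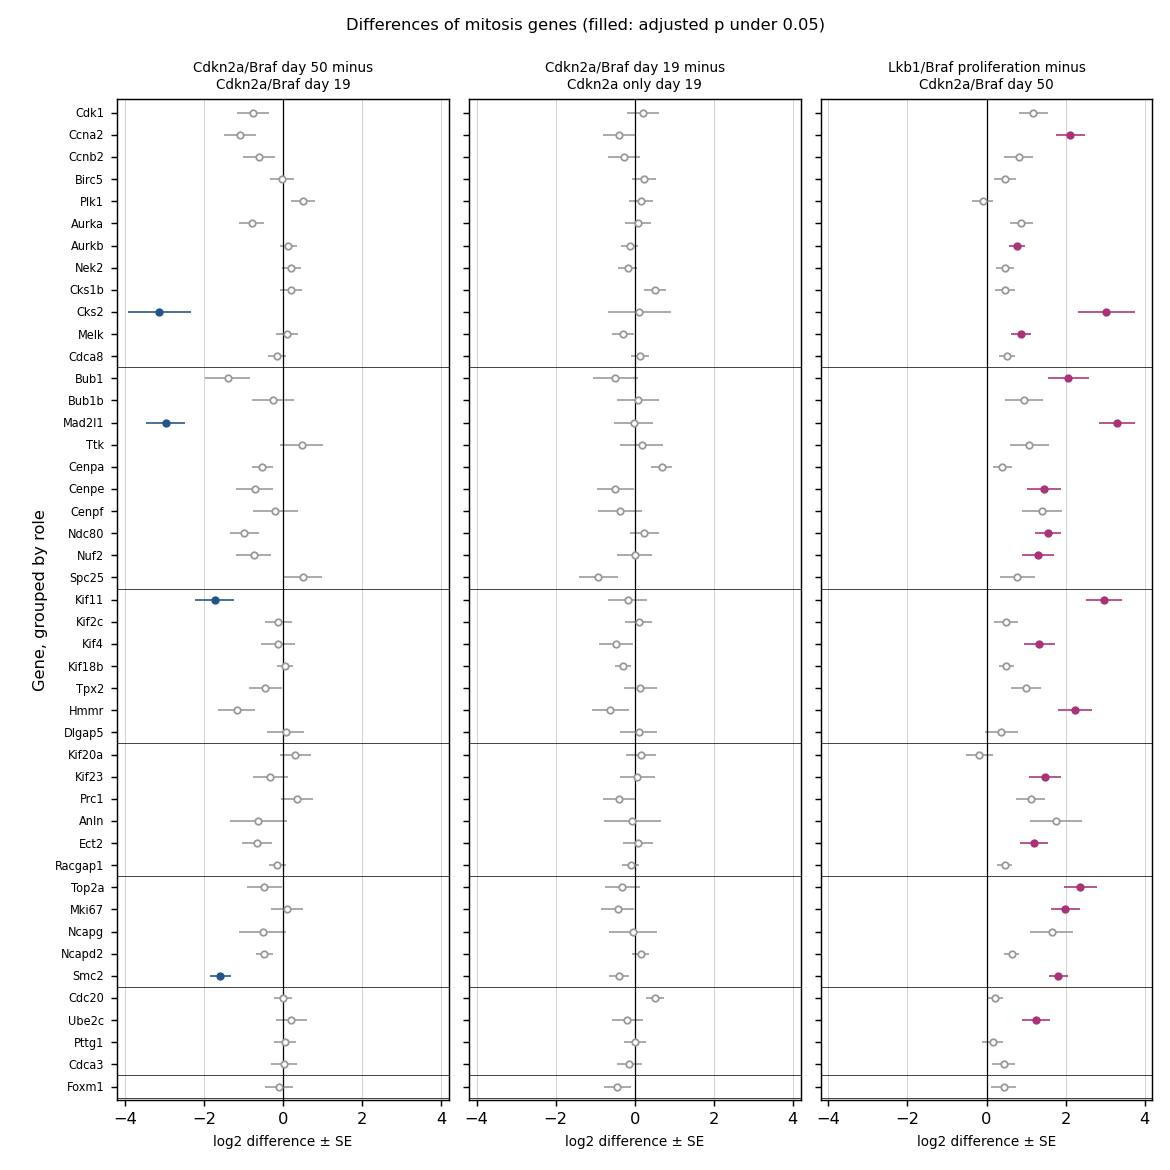
Differences of the 45 mitosis genes (log2 units, points with ± SE bars; filled points have a limma adjusted p under 0.05) for day 50 minus day 19, for Cdkn2a/Braf minus Cdkn2a-only melanocytes at day 19, and for Lkb1/Braf proliferations minus day 50 melanocytes. Called genes number 4 lower in the first panel, 0 in the second and 18 higher in the third.

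An Lkb1 alteration added to the genotype of Cdkn2a/Braf melanoma went with higher mitosis transcripts. All 45 differences were positive, from 0.55 to 2.30 with a median of 1.38, against a median of -0.04 over all genes, and the arrays of the 2 groups did not overlap for 43 genes (24.6% of all genes in that direction). Of the 45 genes 11 were called higher, a share of 24.4%, against 1.83% of all genes, and 0 lower, against 0.732% (2.56% in either direction). Unadjusted p was under 0.05 for 41 of the 45, a count given without the share over all genes, so only the called shares can be compared.

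Among cyclins, kinases and their partners 3 of 12 were called. Birc5, survivin, which guides Aurora B to centromeres, was at 9.24 and 9.75 in the triple genotype and 8.20 and 7.20 in Cdkn2a/Braf melanoma. Its groups did not overlap, and the difference was 1.79 (SE 0.30, limma adjusted p = 0.0148). Plk1, with its values above, differed by 1.52 (SE 0.30, limma adjusted p = 0.0301). Cdca8, borealin, a partner of survivin, was at 7.60 and 7.83 against 6.87 and 6.11, a difference of 1.22 (SE 0.23, limma adjusted p = 0.0226). Cdk1 at 1.51 (SE 0.41, limma adjusted p = 0.0833) and Ccnb2, cyclin B2, at 1.72 (SE 0.41, limma adjusted p = 0.0569) did not pass, although neither overlapped. Ccnb2 was at 10.18 and 10.50 against 9.29 and 7.95. Aurkb, the Aurora B kinase, had the smallest difference of the 45 at 0.55 (SE 0.22).

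Of the 10 checkpoint and kinetochore genes 2 were called. Cenpa was at 8.48 and 8.96 in the triple genotype against 7.51 and 6.96, a difference of 1.49 (SE 0.27, limma adjusted p = 0.0184). Ndc80 was at 9.39 and 9.40 against 8.40 and 7.13, a difference of 1.64 (SE 0.37, limma adjusted p = 0.0472). Both genes separated the groups. Nuf2, which pairs with Ndc80, differed by 1.80 (SE 0.44, limma adjusted p = 0.0639). Mad2l1 overlapped, since Cdkn2a/Braf replicate 1 at 9.67 exceeded the triple-genotype value of 9.44, and its difference was 0.83 (SE 0.49, limma adjusted p = 0.394).

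The spindle genes held the largest difference. Hmmr was at 7.90 and 8.41 in the triple genotype against 6.51 and 5.21, a difference of 2.30 (SE 0.47, limma adjusted p = 0.0338). Kif2c, a kinesin that shortens microtubules at kinetochores, was at 7.45 on the lower triple-genotype array against 6.88 and 5.55, a difference of 1.52 (SE 0.34, limma adjusted p = 0.0472). These were 2 of 7 spindle genes, and in both the triple-genotype arrays were above the others. Kif11 differed by 1.59 (SE 0.49, limma adjusted p = 0.118) and Tpx2, the activator of Aurora A on the spindle, by 1.59 (SE 0.42, limma adjusted p = 0.0776).

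Cytokinesis genes gave 2 of 6 calls. Racgap1 and Ect2 act on the same step, the switching on of RhoA at the cleavage furrow. Racgap1 was at 7.72 and 7.85 in the triple genotype against 6.62 and 5.87, a difference of 1.54 (SE 0.21, limma adjusted p = 0.0063). Ect2 was at 8.09 and 8.97 against 7.23 and 6.23, a difference of 1.80 (SE 0.38, limma adjusted p = 0.0389). Neither gene overlapped between the groups. Anln, anillin of the contractile ring, was at 9.32 and 9.87 against 9.25 and 7.21, a difference of 1.37 (SE 0.73, limma adjusted p = 0.338), with Cdkn2a/Braf replicate 1 close to the triple genotype.

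Of the 4 protein destruction genes 2 were called. Cdc20 was at 8.02 and 8.55 in the triple genotype against 7.06 and 6.45, a difference of 1.53 (SE 0.23, limma adjusted p = 0.00884). Cdca3 was at 7.57 and 8.43 against 6.78 and 6.05, a difference of 1.59 (SE 0.32, limma adjusted p = 0.0317). Neither overlapped. None of the 5 chromosome structure genes passed, among them Top2a, the topoisomerase that untangles sister chromatids (1.16, SE 0.45, limma adjusted p = 0.195), and Mki67 (1.21, SE 0.41, limma adjusted p = 0.146). Foxm1, the transcription factor of late cell cycle genes, differed by 1.05 (SE 0.35, limma adjusted p = 0.139).

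The number of calls followed which melanoma array was in the fit. It was 31 without Cdkn2a/Braf replicate 1, 1 (Racgap1, 1.17) without Cdkn2a/Braf replicate 2, and 2 (Cdc20 and Racgap1) without Cdkn2a/Braf/Lkb1 replicate 2, and the differences of all 45 genes stayed positive each time. Quantile normalization gave 4 calls, a common interquartile range 2 and a fit of these 4 arrays alone 0, also with 45 positive differences. In the same contrast 11 of 11 macrophage markers were positive and 2 called, with sums of 8720 to 10800 against 4620 to 5260. Of the keratinocyte markers 11 of 12 were negative, which rests on Cdkn2a/Braf replicate 2. Their sums were 1580 and 2460 in the triple genotype, against 1340 on Cdkn2a/Braf replicate 1 and 8870 on replicate 2. The fibroblast marker Col1a1 (1.39, limma adjusted p = 0.00429) and the T cell marker Cd4 (0.98, limma adjusted p = 0.0408) were also called higher. Fibroblast sums overlapped, at 11600 to 17000 against 12300 to 13000. Endothelial sums were 2880 to 3250 against 2050 to 2230. The part of these marker lists in the mitosis gene values was not tested.

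**Figure D5:**
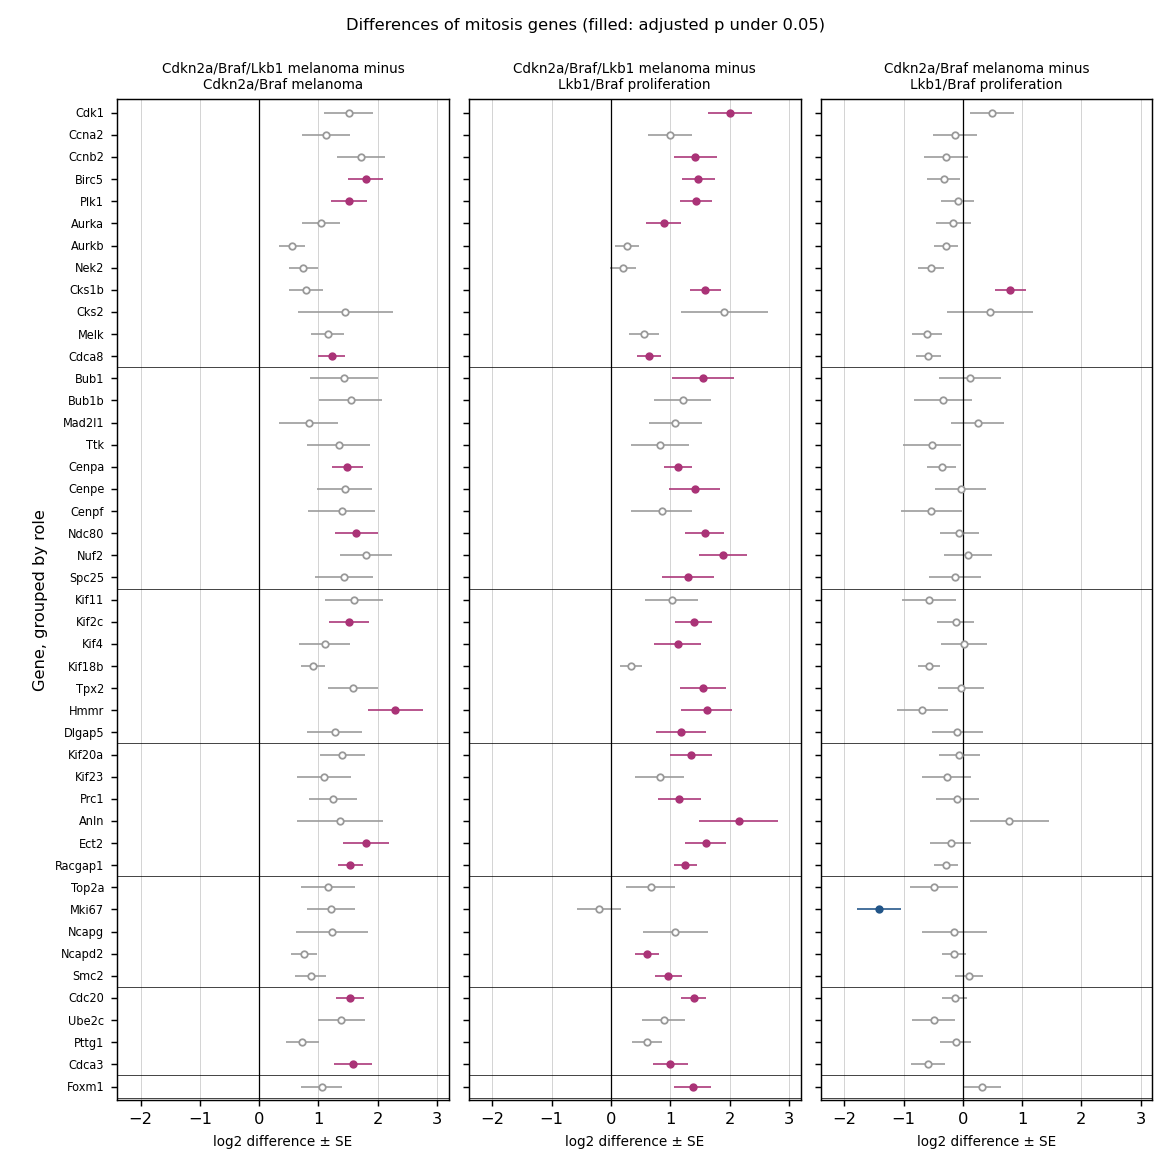
Differences of the 45 mitosis genes (log2 units, points with ± SE bars; filled points have a limma adjusted p under 0.05) between the 3 kinds of lesion. All points of the first panel are above 0 with 11 filled, the second has 28 filled and Mki67 at -0.20, and the third lies around 0 with Cks1b at 0.80 and Mki67 at -1.41 filled.

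Cdkn2a/Braf/Lkb1 melanoma also exceeded the Lkb1/Braf proliferations, which share Braf and Lkb1 alterations and by their labels differ in Cdkn2a and in the kind of lesion. Of the 45 genes 28 were called higher, a share of 62.2% against 20.0% of all genes, and 0 lower, against 20.6%. The median difference was 1.16, with 44 positive, and the arrays did not overlap in the higher direction for 42 genes (34.0% of all genes). By role, 7 of 12 genes of cyclins, kinases and their partners were called. So were 6 of 10 checkpoint and kinetochore genes, 5 of 7 spindle genes and 5 of 6 cytokinesis genes. Calls also fell on 2 of 5 chromosome structure genes, 2 of 4 destruction genes and Foxm1.

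Cdk1 and Plk1, with their array values above, differed by 2.01 (SE 0.37, limma adjusted p = 0.00268) and 1.43 (SE 0.27, limma adjusted p = 0.00312). Cks1b, which links Cdk1 to its substrates, was at 11.39 and 11.87 in the melanoma and 9.93, 10.01 and 10.17 in the proliferations. Its groups lay well apart, with a difference of 1.59 (SE 0.26, limma adjusted p = 0.00126). Nuf2 was at 8.76 and 9.34 against 6.91, 6.85 and 7.69, a difference of 1.90 (SE 0.41, limma adjusted p = 0.00525).

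Cdc20 was at 6.74, 6.98 and 6.95 in the proliferations, below both melanoma arrays, a difference of 1.40 (SE 0.21, limma adjusted p = 0.000872). Racgap1 was at 6.46, 6.67 and 6.45 there, a difference of 1.25 (SE 0.20, limma adjusted p = 0.00105). Anln was at 7.41, 7.22 and 7.70 in the proliferations and differed by 2.15 (SE 0.66, limma adjusted p = 0.0269), the largest value of the 45. Foxm1 was at 7.26 and 8.38 against 6.55, 6.10 and 6.68, a difference of 1.38 (SE 0.32, limma adjusted p = 0.00754). All 4 genes separated the groups.

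Of the 45 genes 17 were not called. Mki67 differed by -0.20 (SE 0.37, limma adjusted p = 0.681), Nek2, a centrosome kinase, by 0.21 (SE 0.22, limma adjusted p = 0.474) and Aurkb by 0.26 (SE 0.20, limma adjusted p = 0.317), and these 3 overlapped. Aurkb was at 7.39 and 7.61 in the melanoma and 7.01, 7.40 and 7.31 in the proliferations. Top2a was at 10.26 and 10.83 against 9.84, 9.61 and 10.16, a difference of 0.67 (SE 0.41, limma adjusted p = 0.209), and its groups did not overlap. Without Cdkn2a/Braf/Lkb1 replicate 2 there were 9 calls, without proliferation replicate 1 there were 17 and without replicate 2 there were 16. Quantile normalization gave 13 and a common interquartile range 9, while a fit of these 5 arrays alone gave 41. In the same contrast 9 of 12 melanocyte, 11 of 12 keratinocyte and 10 of 11 hair markers were lower in the melanoma. Higher there were 7 of 10 fibroblast (1 lower), 5 of 10 endothelial and 4 of 11 macrophage markers. The part of these markers in the mitosis gene values was not tested.

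Between Cdkn2a/Braf melanoma and the Lkb1/Braf proliferations few mitosis genes were called. By limma 1 of 45 genes was higher, against 12.6% of all genes, and 1 lower, against 8.88%. The median difference was -0.14, with 10 genes positive and 35 negative, and the groups overlapped for 38 of the 45, with 2 genes higher without overlap (30.3% of all genes) and 5 lower (27.7% of all genes). Cks1b was at 11.26 and 10.42 in the melanoma, above the 3 proliferation arrays, a difference of 0.80 (SE 0.26, limma adjusted p = 0.0496). Mki67 was below the 3 proliferation arrays on both melanoma arrays, a difference of -1.41 (SE 0.37, limma adjusted p = 0.023). Both calls were lost without any single proliferation array (0 calls in each case), and a common interquartile range left Cks1b at 0.06 and gave 0 higher and 2 lower.

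The gap between the 2 melanoma arrays carries into this comparison. Without Cdkn2a/Braf replicate 1 there were 9 calls, and without replicate 2 there were 3, in opposite directions, with Cdk1, Kif4 and Cks1b higher in the second case and Mki67 at -0.74 (limma adjusted p = 0.207). Kif4 is a kinesin of chromosome arms and the central spindle. Keratinocyte marker sums of 1340 and 8870 on the melanoma arrays against 24700 to 26800 in the proliferations accompany these values, and their part was not tested.

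The proliferations exceeded the day 50 melanocytes, the cells after arrest, which carry Braf and Cdkn2a alterations where the proliferations carry those of Braf and Lkb1. Whole tissue and sorted cells are compared here, so material, genotype and state cannot be told apart. Of the 45 genes 18 were called higher, a share of 40.0% against 9.11% of all genes, and 0 lower, against 9.20%. The median difference was 0.99, with 43 positive, and 40 did not overlap in the higher direction (19.2% of all genes). The proliferations also had 6 of 11 hair markers and 7 of 11 macrophage markers higher than the day 50 cells, and 9 of 12 melanocyte markers lower, and their part was not tested.

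The 4 genes that fell by day 50 were among those called in this contrast. Mad2l1 differed by 3.31 (SE 0.45, limma adjusted p = 0.00109), and Cks2, whose proliferation arrays were at 8.52, 8.32 and 8.62, by 3.03 (SE 0.73, limma adjusted p = 0.0182). Kif11, at 7.76, 7.53 and 8.59, differed by 2.97 (SE 0.45, limma adjusted p = 0.00186), and Smc2, at 8.40, 8.13 and 8.83, by 1.82 (SE 0.23, limma adjusted p = 0.000791). Since both contrasts use the same day 50 arrays, low values there raise all 4 differences. For Cks2 the difference was 1.35 without day 50 replicate 1 and 4.72 without day 50 replicate 2, and its call ended without proliferation replicate 1 (adjusted p = 0.0509) or 3 (0.0558).

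Other called genes span the roles. Ccna2 was at 8.05, 7.78 and 8.49 in the proliferations and 6.08 and 5.88 at day 50, a difference of 2.12 (SE 0.37, limma adjusted p = 0.00406). Top2a was at 7.55 and 7.45 at day 50 and differed by 2.37 (SE 0.41, limma adjusted p = 0.00385). Mki67 was at 6.93 and 6.51 at day 50 and differed by 2.00 (SE 0.37, limma adjusted p = 0.0057). In these genes the 3 proliferation arrays were above both day 50 arrays. Plk1 at -0.10 (SE 0.27), Kif20a at -0.18 (SE 0.35), Pttg1 at 0.15 (SE 0.26) and Cdc20 at 0.22 (SE 0.21) lay near 0. Leaving out proliferation replicate 1, 2 or 3 gave 10, 10 and 8 calls.

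Against the sorted melanocytes, Cdkn2a/Braf melanoma showed fewer calls, and again tissue and sorted cells cannot be told apart from lesion and cell state. Compared with day 19 cells of the same genotype 2 of 45 genes were higher (7.17% of all genes) and 0 lower (5.46%), with a median difference of 0.51. These were Cks1b, at 9.51 and 9.23 in the cells (1.47, SE 0.28, limma adjusted p = 0.00614), and Prc1, which bundles microtubules of the central spindle, at 7.94 and 6.37 against 5.82 and 5.72 (1.39, SE 0.40, limma adjusted p = 0.0483). Without melanoma replicate 2 there were 18 calls, without replicate 1 there was 1, without day 19 replicate 1 there was 1 and without day 19 replicate 2 there were 0. Compared with day 50 cells 15 of 45 were higher (15.5% of all genes) and 0 lower (16.9%), with a median of 0.76. Mad2l1 (3.56, SE 0.49, limma adjusted p = 0.000935) and Smc2 (1.92, SE 0.26, limma adjusted p = 0.000729) had the lowest adjusted p. Without melanoma replicate 1 there were 4 calls (Ccna2, Mad2l1, Kif11 and Smc2) and without replicate 2 there were 26. In these contrasts 10 and 6 of 10 fibroblast markers and 6 and 9 of 11 macrophage markers were higher in the tissue, and their part was not tested.

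Beyond the 45, a list of 108 other mitosis genes (further kinetochore, checkpoint, motor, condensin, cohesion, anaphase-promoting complex and transcription genes) and 34 DNA replication genes were described the same way. From day 19 to day 50, 21 of the 108 were lower and 2 higher, with a median of -0.26. The lower ones included 7 of 14 genes of the anaphase-promoting complex and its regulators, among them the subunit Cdc26 (-1.74, SE 0.22, limma adjusted p = 0.000596). They also included E2f8, an E2F family repressor (-1.83, SE 0.45, limma adjusted p = 0.0168), and Zw10, which brings dynein to kinetochores (-1.62, SE 0.38, limma adjusted p = 0.0145). Of the replication genes 3 were lower, including Gins1, a part of the replicative helicase (-0.96, SE 0.29, limma adjusted p = 0.0381). Shares called lower of 19.4% and 8.82% in the 2 lists compare with 14.5% of all genes, and 1.85% of the 108 called higher with 11.1%.

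In Cdkn2a/Braf/Lkb1 against Cdkn2a/Braf melanoma 9 of the 108 were higher (8.33%, against 1.83% of all genes) and 0 lower (0.732% of all genes), with 98 positive and a median of 0.78. The largest were E2f8 (2.51, SE 0.45, limma adjusted p = 0.0182) and Ska3, a kinetochore protein (1.64, SE 0.30, limma adjusted p = 0.0197). All 34 replication genes were positive with a median of 0.72, and 3 were called (8.82%), Tyms, the thymidylate synthase (1.47, SE 0.20, limma adjusted p = 0.0059), Mcm3, a helicase subunit (1.44, SE 0.31, limma adjusted p = 0.0404), and Ccne1, cyclin E1 (1.03, SE 0.20, limma adjusted p = 0.0243). Against the proliferations 50 of the 108 were higher (46.3%, against 20.0% of all genes) and 2 lower (1.85%, against 20.6%), and 10 of the 34 were higher (29.4%). E2f8 differed there by 2.98 (SE 0.41, limma adjusted p = 0.000517) and Zwint, a kinetochore scaffold, by 1.97 (SE 0.18, limma adjusted p = 6.32e-05).

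Between Cdkn2a/Braf melanoma and the proliferations 14 of the 108 were higher (a share close to the 12.6% of all genes) and 5 lower (4.63%, against 8.88%). The higher ones included 7 of 14 genes of the anaphase-promoting complex and its regulators, such as the subunit Anapc4 (1.27, SE 0.13, limma adjusted p = 0.000241), and the lower ones Stmn1, stathmin, which destabilises microtubules (-1.37, SE 0.25, limma adjusted p = 0.00443). No replication gene was called by limma in that contrast, with an unadjusted p under 0.05 for 4 of 34. Of all genes 21.5% passed even the adjusted threshold there. In the Braf comparison 0 of 108 and 0 of 34 were called by limma, with an unadjusted p under 0.05 for 8 and 2, shares close to that of all genes there. Against day 50 cells 28 of the 108 (25.9%) were higher and 1 lower both in Cdkn2a/Braf melanoma, where 15.5% of all genes were higher, and in the proliferations, where 9.11% were. Of the 34 replication genes 5 (14.7%) and 6 (17.6%) were higher in these contrasts. Against day 19 cells Cdkn2a/Braf melanoma had 7 of 108 higher (6.48%) and 4 lower (3.70%), close to the 7.17% and 5.46% of all genes. Other scalings were not run for these 2 lists.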

How the data were processed

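The authors deposited 1 table of linear-scale intensity values for 34760 probe sets on 13 Affymetrix arrays, normalized with RMA per the submitters' processing notes; the version, build and the step back to a linear scale are not stated in the sources at hand. The platform table pairs 22961 probe sets with genes, 21640 with 1 gene, 1321 with several, and the rest are unnamed here; 21553 of the 1-gene sets were matched to current symbols by Entrez identifier, giving 19937 genes, each by the probe set with the highest mean. The deposited intensity ranged from 3.35 to 17698 with array medians of 68.3 to 80.5, and log2(intensity + 1) was computed from it. Group means over all 13 arrays were fitted with limma 3.58.1 (R 4.3.3, lmFit and eBayes, 7 residual and 3.08 prior degrees of freedom, two-sided) for 8 contrasts, and p-values were adjusted by Benjamini-Hochberg across the whole gene table, with a threshold of 0.05. Tables, motif searches and plots used Python 3.11.15, pandas 2.3.3, numpy 2.4.6 and matplotlib 3.10.9. The fit was tested on simulated data. The members and lists were chosen with earlier results of these data known. Any of the 46 genes could be named, and of the other lists up to 4 called genes with the largest differences per contrast. Alternatives were other scalings, a pseudocount of 16, the mean of probe sets, a filter on dim genes, moderation, the arrays fitted, a replicate block and each array left out.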

Additional observations from a re-analysis of the deposited data

How the results depend on the processing

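Across the alternatives no called difference of a mitosis gene changed sign. Of the values for single genes 4352 kept their side of the threshold, 288 lost and 119 gained a call. The 4352 include genes called in no setting, such as all 45 in the Braf comparison, so they overstate how stable the calls were. Prc1, in Cdkn2a/Braf melanoma against day 19 cells, kept its call in 4 of 13 alternatives. Smc2, from day 19 to day 50, kept it in 13 of 13, and the other calls lay between or were likewise always kept. From day 19 to day 50 a common interquartile range gave 7 calls and a fit of the compared arrays alone 1, against 4. For the 2 melanomas, against 11, the counts were 4 with quantile normalization, 2 with a common interquartile range, 0 with the compared arrays alone and 3 with the replicate block. For Cdkn2a/Braf/Lkb1 melanoma against the proliferations, quantile normalization gave 13, a common interquartile range 9, the replicate block 21 and the compared arrays alone 41, against 28. For Cdkn2a/Braf melanoma against the proliferations, quantile normalization and a pseudocount of 16 gave 1 and the replicate block 0, against 2. Against day 19 cells, median centring, quantile normalization, a common interquartile range, a pseudocount of 16, the compared arrays alone and the replicate block each gave 1, against 2. Against day 50 cells the compared arrays alone gave 1, against 15, and for the proliferations against day 50 cells the replicate block gave 7 and the compared arrays alone 20, against 18. The cause of these changes was not tested.

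With each array left out in turn, calls ranged from 2 to 5 (day 50 against day 19), 0 to 0 (Braf), 1 to 31 (the melanomas), 9 to 26 (triple-genotype melanoma against proliferations), 0 to 9 (Cdkn2a/Braf melanoma against proliferations), 0 to 18 (against day 19), 4 to 26 (against day 50) and 8 to 17 (proliferations against day 50). A lone remaining array is assumed to vary like the other groups. Same-numbered arrays deviated with correlations between -0.117 and 0.06, so no pairing by number was seen. Such values cannot exclude that same-numbered samples were handled together. Median centring moved the median of all genes from -0.04 to 0.07 for triple-genotype melanoma against proliferations and from -0.04 to -0.14 for Cdkn2a/Braf melanoma against day 19 cells. The 7 mitosis genes with a mean below the median gene (6.51) are the most limited by background.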

Other observations

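Cks2 has 3 probe sets assigned to it alone, and they did not give the same size of difference between day 19 and day 50. The set used here had group means of 8.59 at day 19 and 5.46 at day 50, the second set 7.33 and 5.63, and the third, which was dim, 4.77 and 4.69. In Cdkn2a/Braf/Lkb1 melanoma the 3 sets were at 10.40, 9.79 and 7.38, their highest group means. The other probe set of Top2a had a mean of 3.71 over all arrays, close to the lowest intensities, and was not used.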
